A study of Mus musculus with 8 samples.

Results

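The miR-297, miR-466, miR-467 and miR-669 miRNAs were described in mouse liver macrophages and blood monocytes. All rows of the deposited table whose name starts with mmu-miR-297, mmu-miR-466, mmu-miR-467 or mmu-miR-669 were taken, with any letter or arm. This gave 33 of the 566 mouse miRNA rows of a table of 626 rows. By the start of the name, 4 rows were miR-297, 12 were miR-466, 8 were miR-467 and 9 were miR-669. Each of 4 rows was read by a probe named for several miRNAs at once, which cannot be told apart there. These were miR-297a with miR-466f and miR-669b, miR-466a-3p with miR-466b-3-3p, miR-466a-5p with miR-466e-5p, and miR-467h with miR-669d and miR-669l. The 33 rows are called members below.

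The study compared the macrophages that reside in the liver, called Kupffer cells (KC), with blood monocytes (MNC), circulating cells that can give rise to macrophages, to find how their miRNA levels differ. There were 4 KC and 4 MNC samples, all from Balb/C mice with no treatment named, and each was labelled as a pool of 5 mice, while the study's methods also allow smaller pools. Both cell types were taken with magnetic beads against F4/80, a macrophage surface protein, from liver for KC and from the mononuclear fraction of blood for MNC, so cell type, tissue and isolation cannot be told apart. From each pool 100 ng of total RNA was read on an nCounter mouse miRNA panel, in which a tag is ligated to each miRNA and single fluorescent barcodes are counted.

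A miRNA is cut from a hairpin of RNA and guides silencing proteins to mRNAs that pair with it, chiefly through bases 2 to 8, called the seed. In mice an intron of Sfmbt2, which encodes a Polycomb group protein, holds a dense array of miRNA genes with closely related sequences. The array is known above all from the placenta and other extraembryonic tissue, where Sfmbt2 is expressed from the paternal copy. Whether probes for such related sequences share signal was not tested, and the families were counted here as the panel names them.

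The rows hold 39 miRNA names, and 37 of them matched a miRNA gene of RefSeq (GRCm38.p6). The unmatched names were miR-466a-3p and miR-466a-5p. On chromosome 2, 72 miRNA genes lie within the span of Sfmbt2, and 71 of these carry one of the 4 family names. The matched genes of 25 rows lie wholly within Sfmbt2. These include the rows of miR-466a-3p and miR-466a-5p, where only the other name, miR-466b-3-3p or miR-466e-5p, has a matched gene. For 3 rows, miR-297a with miR-466f and miR-669b, miR-466f-5p, and miR-467h with miR-669d and miR-669l, some genes lie within it and some elsewhere. For 5 rows, miR-466i, miR-466j, miR-466k, miR-467f and miR-467g, the genes lie elsewhere, so the family names and the Sfmbt2 cluster are not the same set.

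RefSeq gave a mature sequence for 5 of the 39 names, all of genes outside Sfmbt2. They are shown to set some letters of the miR-466 and miR-467 names side by side. Each is written 5′ to 3′ with the seed in capitals.
miR-466j (chr10:60960802-60960824, plus strand): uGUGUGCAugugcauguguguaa
miR-466k (chr3:85467396-85467418, plus strand): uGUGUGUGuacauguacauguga
miR-467f (chr11:69635419-69635439, minus strand): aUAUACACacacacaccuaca
miR-467g (chr5:34732872-34732892, minus strand): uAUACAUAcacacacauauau
miR-467h (chr9:115381898-115381919, plus strand): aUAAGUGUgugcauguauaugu

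The 5 seeds all differed, and no other panel row with a sequence shared any of them. U and G made up 73.9% of the bases of miR-466j, 69.6% of miR-466k and 68.2% of miR-467h. A and C made up 85.7% of miR-467f and 71.4% of miR-467g, so these miRNAs with the name miR-467 differ widely in composition. Their names do not give the arm of the hairpin, so unlike arms may be compared here. The run UGUGUGUG, searched on the mature strand, stood in 3 of the 198 panel rows with a sequence (1.52%) and in 7 of 1738 mouse mature miRNAs (0.403%). Besides miR-466k the rows were miR-1187 and miR-574-5p. CACACACA stood in 2 panel rows (1.01%), miR-467f and miR-467g, and in 4 mature miRNAs (0.230%). These counts describe the sequences at hand and say nothing of the other members.

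A sample held 5374 to 10568 barcode counts over its mouse miRNAs, and the highest of the 8 negative controls was 17 to 35 counts. A row was called above background in a sample where its count was over that sample's highest negative control. Among markers of the cells, miR-142-5p, a miRNA of blood-derived cells, had 459 to 554 counts in KC and 505 to 745 in MNC and was above background in all 8 samples. miR-142-3p had 19 to 26 counts in KC and 12 to 32 in MNC and was above background in 2 KC samples and 0 MNC samples. miR-223, used as a myeloid marker, had 2 to 11 counts and was above background in no sample. miR-122, the main hepatocyte miRNA, had 161 to 685 counts in KC and 2 to 7 in MNC. The 3 hepatocyte markers miR-122, miR-192 and miR-194 summed to 217 to 720 counts in KC and 20 to 72 in MNC. For miR-192 alone these were 20 to 29 and 5 to 29 counts, and for miR-194 15 to 44 and 13 to 38. Both overlapped between the groups, so the difference of the sum rests on miR-122. The 3 red cell markers summed to 90 to 123 and 105 to 636 counts, mostly from miR-486, with 78 to 114 and 63 to 617. miR-451 had 6 to 9 and 18 to 39 counts, and miR-144 had 2 to 5 and 1 to 5. The lymphocyte marker miR-150 had 32 to 114 and 15 to 463 counts, and both endothelial markers together had 4 to 6 and 6 to 14. Their part in the results below was not tested. In such pools, fewer cells of a type and less RNA per cell cannot be told apart.

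Most members were not above background. In KC 1 to KC 4, 7, 2, 3 and 4 of the 33 were above it, and in MNC 1 to MNC 4, 5, 1, 4 and 1. As shares these were 3.03% to 21.2% of the members, beside 5.63% to 26.6% of the 533 other mouse rows. Over all samples 27 of 264 member values were above background (10.2%), against 546 of 4264 for the other rows (12.8%). In at least 1 sample, 10 members (30.3%) and 194 other rows (36.4%) were above it. In at least 4 samples, 3 members (9.09%) and 52 other rows (9.76%) were, and in all 8 samples 0 members and 8 other rows.

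The 23 members above background in no sample had 1 to 27 counts, and for these the data give only a bound. At the low end, the rows miR-297b-3p, miR-669m and miR-297b-5p each had 1 value listed at the floor of the deposited table, which means at most 1 count. Other recovered counts of 1 may be a floor as well, since rows such as let-7a, miR-155 and miR-34c read 1 in all 8 samples. The median count of the 33 members was 13, 14, 8 and 13 in KC 1 to KC 4 and 7, 16, 11 and 17 in MNC 1 to MNC 4. That of the other mouse rows was 11, 11, 8 and 11, then 7, 14, 10 and 12. The herpesvirus miRNAs of the panel, which uninfected cells lack, had medians of 16, 15, 11 and 16, then 8, 19, 14 and 18, and in every sample these lay above the median of the members. The members together held 4.74% ± 0.137 of the mouse miRNA counts of a KC sample and 5.05% ± 0.577 of those of an MNC sample (SD, n = 4 in both groups).

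**Figure D1:**
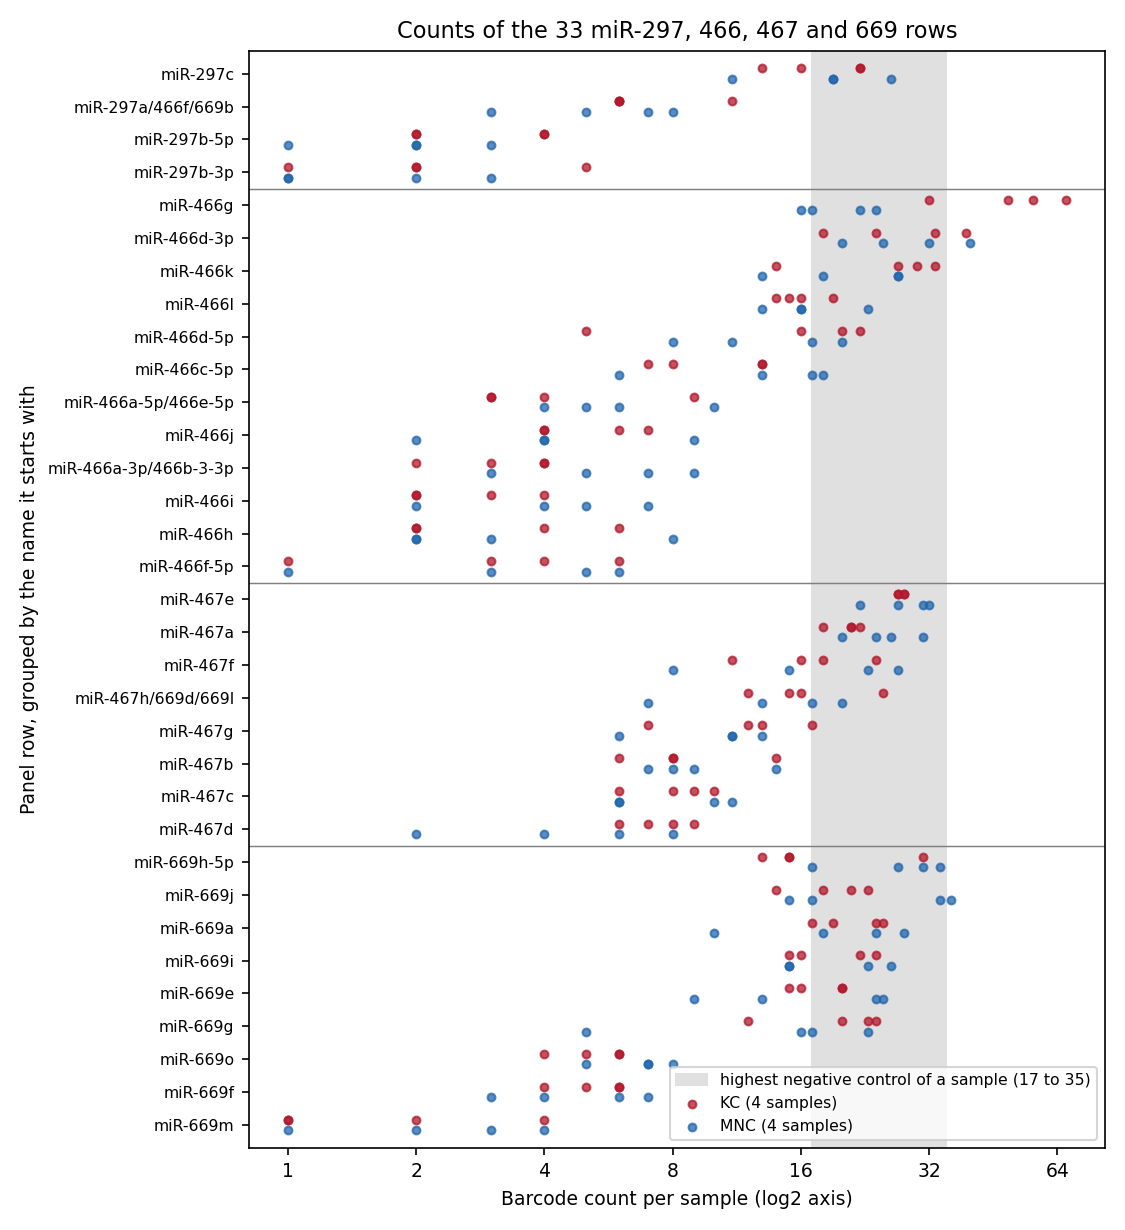
Barcode count (log2 axis) of each member row in the 4 KC samples (red, upper points) and the 4 MNC samples (blue, lower points), with rows grouped by the family that starts the name. The grey band spans the highest negative controls of the 8 samples, 17 to 35 counts, and only miR-466g has KC points well to its right, at 49, 56 and 67 counts.

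The rows were also split by place in the genome. Of the 25 rows whose matched genes lie wholly within Sfmbt2, 9 were above background in at least 1 sample, in 25 of 200 values. Beside this stand 36.4% of the 533 other mouse rows and 12.8% of their values. The median count of the 25 rows was 9 to 17 per sample. Among them, the rows of miR-466a-3p and miR-466a-5p each hold a name that matched no gene. The 3 rows with genes both inside and outside were above background in 0 of 24 values, with medians of 5 to 11 counts. Of the 5 rows from elsewhere, miR-466k was above background, in 2 of 40 values over these rows, and the medians were 6 to 16 counts. Other sets on the panel give a scale. In the Dlk1-Dio3 cluster, an imprinted miRNA cluster of another chromosome, 22 of 54 rows (40.7%) were above background in at least 1 sample and 48 of 432 values (11.1%). In the let-7 family, which most differentiated cells express, 7 of 8 rows and 39 of 64 values (60.9%) were.

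By the median count of their rows, the 4 families fell in nearly the same order in each sample. The median count of the miR-297 rows averaged 5.5 ± 0.707 over KC samples and 4.13 ± 1.25 over MNC samples (SD, n = 4 in both groups). For KC and MNC it was 8.13 ± 2.81 and 9.88 ± 3.59 for miR-466, 14.3 ± 2.96 and 12.9 ± 4.07 for miR-467, and 16.3 ± 2.63 and 18 ± 7.39 for miR-669. Within every family the KC and MNC samples overlapped.

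The miR-669 median was higher than that of miR-467 in 7 of 8 samples, with KC 1 as the exception, and miR-467 was higher than miR-466 in all 8. miR-466 was higher than miR-297 in 7 of 8, KC 3 excepted. miR-467 and miR-669 were higher than miR-297, and miR-669 was higher than miR-466, in all 8. Over the median of the other mouse rows of the same sample, the ratio was 0.476 ± 0.145 for miR-297, 0.841 ± 0.174 for miR-466, 1.28 ± 0.142 for miR-467 and 1.61 ± 0.266 for miR-669 (SD, n = 8). With the mean of the rows in place of the median, the ratios were 0.484 for miR-297, 0.812 for miR-466, 0.928 for miR-467 and 0.924 for miR-669, so the order of miR-467 and miR-669 and their place above the other rows were lost. By means, miR-466 was also above miR-669 in KC 1 and KC 2 and above miR-467 in KC 1, and miR-297 above miR-466 in MNC 1. These medians all lie below the highest negative control, and probes differ in efficiency and background, so the order is one of probe counts and not of miRNA amounts.

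**Figure D2:**
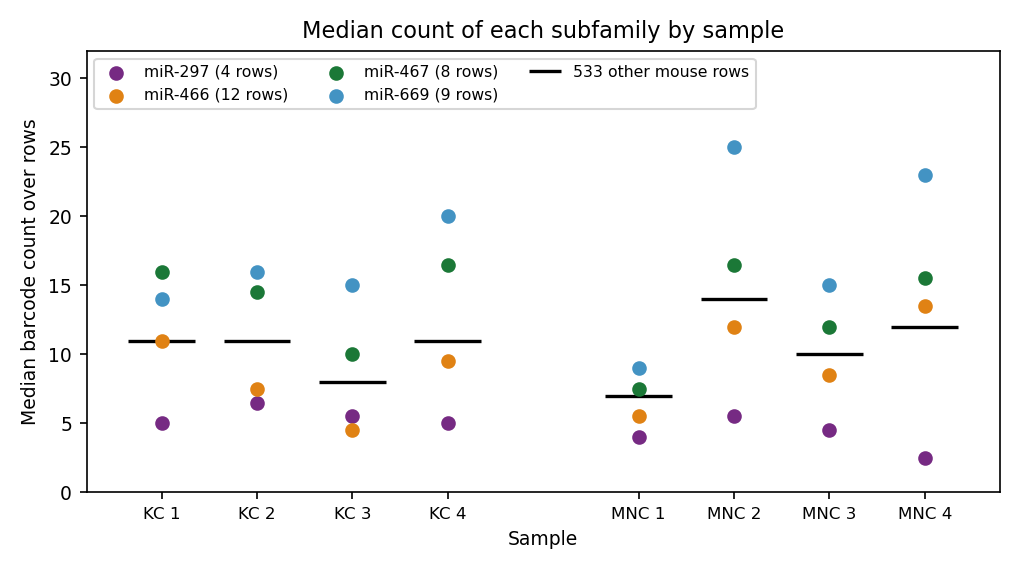
Median barcode count over the rows of each family in each of the 8 samples, with a black line at the median of the 533 other mouse miRNA rows. The miR-297 points lie below the black line in every sample, and the miR-467 and miR-669 points lie above it in every sample.

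Over all 566 mouse rows, 204 were above background in at least 1 sample, in 573 of 4528 values (12.7%). In miR-297 it was 1 of 4, miR-297c, in 2 of 32 values. In miR-466 it was 3 of 12, in 12 of 96 values, in miR-467 it was 2 of 8, in 7 of 64, and in miR-669 it was 4 of 9, in 6 of 72. These are counts over a few rows in each family, and no difference between families was tested. Counts ran from 1 to 26 over the miR-297 rows, 1 to 67 over miR-466, 2 to 32 over miR-467 and 1 to 36 over miR-669. The order of the members by count was much alike in all samples. Spearman's rho over the 33 rows averaged 0.865 within KC, 0.856 within MNC and 0.851 between a KC and an MNC sample, and over the 533 other rows it averaged 0.851, 0.826 and 0.827. These values are across rows that share their probes in all samples, and are a description.

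The member with the highest mean count over the 8 samples was miR-466g, whose gene lies within Sfmbt2. It had 56, 49, 67 and 32 counts in KC 1 to KC 4 and 16, 22, 17 and 24 in MNC 1 to MNC 4. All 4 KC samples lay above all 4 MNC samples, and the lowest KC sample, KC 4, was nearest to MNC. It passed the background limit in each KC sample and in no MNC sample, a pattern that 2 of the 533 other mouse rows (0.375%) also had. By count it ranked 1, 1, 1 and 3 among the members in KC and 6, 11, 7 and 7 in MNC, where its counts were not above background and miR-466d-3p and miR-467e had higher means, 29.3 and 28 against 19.8 counts. Because MNC has only a bound, the KC geometric mean was at least 1.92-fold higher in counts and at least 3.99-fold higher in deposited signal, with each MNC sample taken at its own value or its highest negative control, whichever was higher. Each bound holds only on its own scale. Scaled to the positive ligation controls of the panel, described below, the difference was 0.10 on the log2 scale and the groups overlapped. That scaling moved the other rows too, with 258 of the 566 mouse rows called lower in KC and 3 higher. The 0.10 is thus not a difference relative to the other rows.

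The next members were miR-466d-3p and miR-467e, both also from within Sfmbt2. miR-466d-3p had 24, 39, 18 and 33 counts in KC and 20, 40, 25 and 32 in MNC, and was above background in 6 samples. miR-467e had 27, 28, 28 and 27 counts in KC and 22, 32, 27 and 31 in MNC, and was above background in 5. For both, the counts of KC and MNC overlapped.

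**Figure D3:**
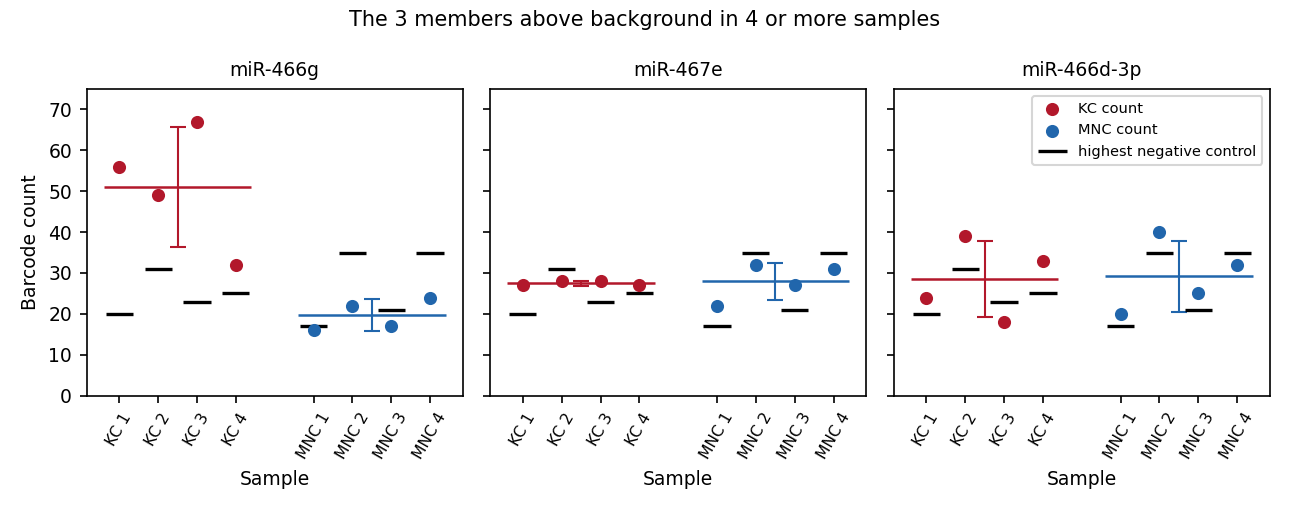
Barcode counts of miR-466g, miR-467e and miR-466d-3p in each sample, with the group mean (coloured line), its SD (error bar, n = 4) and the highest negative control of the sample (black line). For miR-466g the KC points lie at 32 to 67 counts, over their black lines, and the MNC points at 16 to 24, under theirs.

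The other 7 members above background passed it in 1 to 3 samples. miR-669h-5p had 13, 15, 31 and 15 counts in KC and 27, 34, 31 and 17 in MNC, above background in KC 3, MNC 1 and MNC 3. KC 3 stood apart from the other KC samples, and 3 of the 4 MNC samples were as high as it or close to it. miR-467a had 18, 21, 22 and 21 counts in KC and 20, 31, 24 and 26 in MNC, above background in MNC 1 and MNC 3. In miR-467a the MNC samples reached higher, and the groups overlapped.

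miR-297c had 22, 22, 16 and 13 counts in KC and 26, 19, 11 and 19 in MNC, above background in KC 1 and MNC 1. miR-466k, shown above with its UG-rich sequence, had 27, 30, 14 and 33 counts in KC and 13, 27, 18 and 27 in MNC, above background in KC 1 and KC 4. For each of these the groups overlapped. miR-669a had 24, 19, 17 and 25 counts in KC and 10, 28, 18 and 24 in MNC. miR-669g had 23, 20, 12 and 24 counts in KC and 5, 16, 17 and 23 in MNC. Both were above background in KC 1 alone. miR-669j had 14, 23, 18 and 21 counts in KC and 15, 34, 17 and 36 in MNC, above background in MNC 4 alone. The groups overlapped for all 3.

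KC and MNC were then compared on the deposited scale, a signal scaled in each sample to 4 mRNAs. Here all 33 members had a positive difference, with a median of 0.98 on the log2(signal + 1) scale. The median over the other mouse rows was 0.93, so the members moved with the whole panel. With limma and Benjamini-Hochberg adjustment over 566 rows, 7 of 33 members (21.2%) were higher in KC and 0 lower, beside 140 of all 566 rows higher (24.7%). The groups did not overlap for 15 members (45.5%), all higher in KC, beside 209 of the 566 rows (36.9%). The scaling factor averaged 1.62 ± 0.106 over the KC and 0.794 ± 0.197 over the MNC samples (SD, n = 4 in both), and rows that hold background alone take the same shift.

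The 7 members were miR-466g, miR-467d, miR-297b-5p, miR-669g, miR-466k, miR-669a and the row of miR-467h with miR-669d and miR-669l. Of these, 3 were above background in no sample. The count of 7 became 0 on barcode counts without the factor (1 at an unadjusted p under 0.05 in limma, beside 29 of the 566 rows), 0 after quantile normalization (1 unadjusted, beside 43 rows), and 15 lower with 0 higher after scaling to the positive ligation controls. Over all 566 rows these settings gave 1 higher, 1 higher with 1 lower, and 3 higher with 258 lower, so the members again moved with the panel. Without KC 1, KC 2 or KC 4 it was 1 member, beside 33, 26 and 41 of the 566 rows. Without MNC 1 it was 11 members, beside 145 rows higher and 1 lower.

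Relative to the other mouse miRNAs the members as a whole lay near 0. Here each sample's log2(count + 1) values were centred on the median of the 533 other rows. The median difference of the members was 0.03, that of the other rows was 0.04, and 20 of 33 members were positive. By limma 1 member, miR-466g, was higher in KC, beside 10 of 566 rows (1.77%), and 0 were lower, beside 1 (0.177%). At an unadjusted p under 0.05 it was again 1 member, beside 46 rows in either direction (8.13%). The groups did not overlap for 1 member higher in KC, beside 19 rows (3.36%), and for 0 lower, beside 7 rows (1.24%).

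The other 32 members ran from -0.63 to 0.64, and their lowest adjusted p in limma was 0.711. The 6 that passed the test beside miR-466g on the deposited scale had relative differences of 0.19 to 0.64, with adjusted p in limma from 0.711 to 0.918. By family the median relative difference was 0.34 for miR-297, -0.02 for miR-466, 0.05 for miR-467 and 0.01 for miR-669. None of the 4 miR-297 rows passed the test, and miR-297c, the one of them that was above background in any sample, had a relative difference of 0.03. In the Dlk1-Dio3 cluster the median relative difference was near 0 and 0 of 54 rows passed the test, with 2 at an unadjusted p under 0.05, and in the let-7 family the median was 0.78 and 3 of 8 rows passed, higher in KC.

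**Figure D4:**
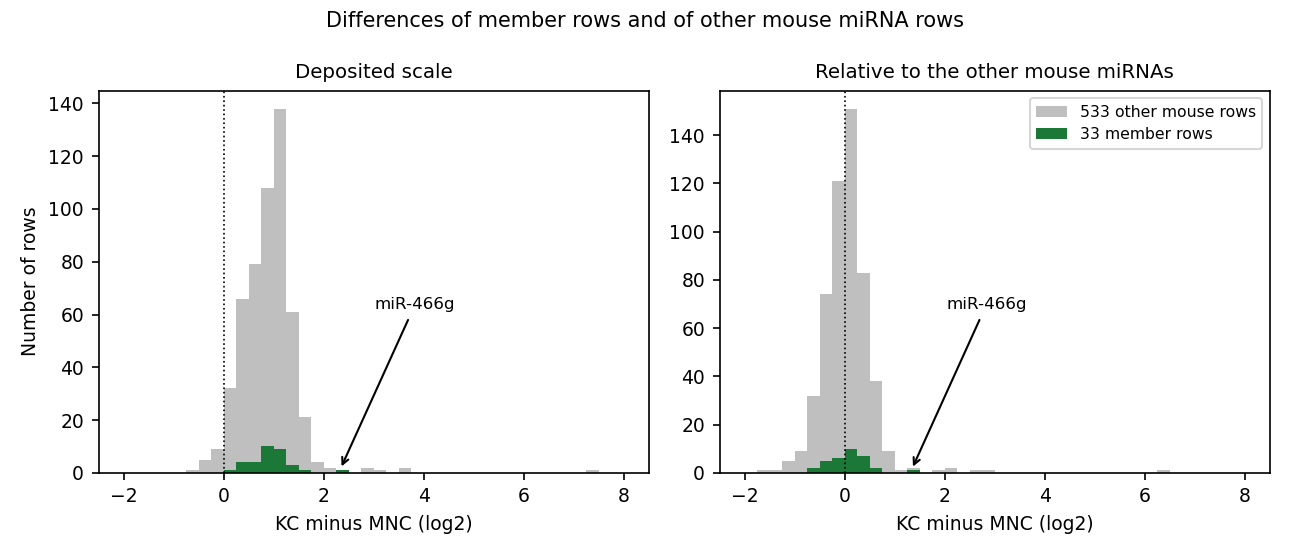
Number of rows by their KC minus MNC difference (log2), on the deposited scale (left) and relative to the other mouse miRNAs (right), for the 533 other mouse rows (grey) and, drawn in front of them, the 33 members (green). On the left both sets centre near 0.9 to 1, on the right near 0, and miR-466g lies at 2.32 and 1.33.

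For miR-466g the fitted difference was 2.32 on the deposited scale (SE 0.41, adjusted p = 6.16e-04 by limma) and 1.33 relative to the other rows (SE 0.27, adjusted p = 0.00129 by limma). Its deposited signal was 85.4, 86.1, 110.74 and 49.7 in KC and 9.43, 16.1, 18 and 19.2 in MNC. The MNC values were not above background, so these fits compare probe counts, and they hold for the scaling named. For miR-467e the difference was 1.01 on the deposited scale (adjusted p = 0.0546 by limma) and 0.02 relative to the other rows (adjusted p = 0.983). For miR-466d-3p it was 0.97 (adjusted p = 0.0666 by limma) and -0.01 (adjusted p = 0.986). On the deposited scale miR-467e and miR-466d-3p passed the threshold with a pseudocount of 10 (adjusted p = 0.0378 and 0.0475 by limma) and among the rows above background on average (adjusted p = 0.0168 and 0.0211 by limma). miR-467e also passed it without MNC 1 (adjusted p = 0.0239 by limma). Both turned negative on barcode counts and under each other scaling tried. With the ligation controls they passed the threshold as lower in KC, at -1.20 (adjusted p = 0.0398 by limma) and -1.23 (adjusted p = 0.0368 by limma).

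The positive ligation controls, synthetic RNAs that report how well the tag was joined in a sample, moved with miR-466g. Their geometric mean was 2460, 2148, 2821 and 1217 counts in KC 1 to KC 4 and 533, 1136, 1111 and 885 in MNC 1 to MNC 4. Within KC the samples fell in the same order as for miR-466g, from KC 3 down to KC 4. Within MNC the orders differed, since MNC 4 was highest for miR-466g and MNC 2 for the controls, while MNC 1 was lowest for both. Per 1000 counts of these controls, miR-466g had 22.8, 22.8, 23.7 and 26.3 counts in KC and 30.0, 19.4, 15.3 and 27.1 in MNC. The MNC values rest on counts that were not above background. On this scale the groups overlapped, and scaling to the ligation controls gave a difference of 0.10 (SE 0.49, adjusted p = 0.844 by limma). The same scaling put miR-467e at -1.20 and miR-466d-3p at -1.23, with 258 of the 566 rows called lower in KC. miR-466g thus stayed above both of these members. A factor per sample largely cancels in its difference relative to the other rows, which was 1.33. The part of ligation in the miR-466g difference was not tested, and the ratio was examined after its values had been seen.

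**Figure D5:**
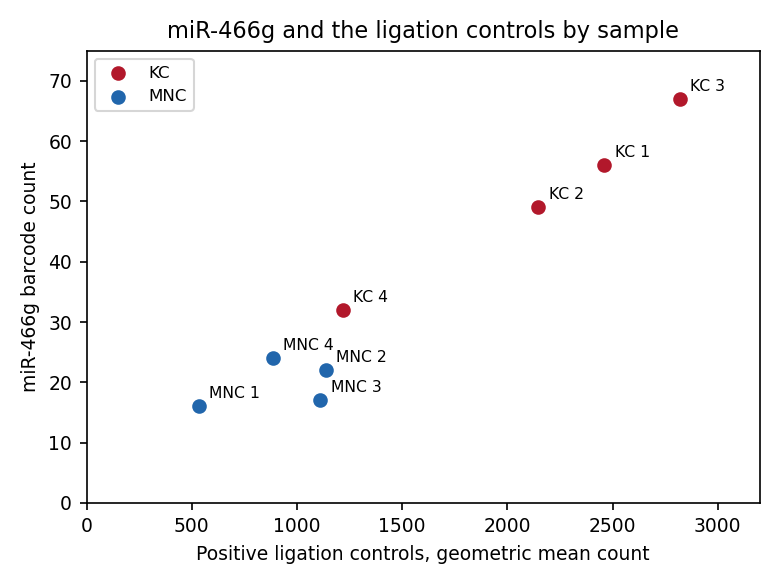
miR-466g barcode count against the geometric mean count of the 3 positive ligation controls, 1 point for each of the 4 KC (red) and 4 MNC (blue) samples. KC 3, KC 1 and KC 2 are highest on both axes, and KC 4, at 32 counts and 1217, lies nearest to the MNC points.

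The call of miR-466g relative to the other rows was lost under 3 of 16 alternatives, not counting a filter on low rows that it passed only through its KC counts. Centred on the mouse rows above background, the difference was 0.98 (adjusted p = 0.0532 by limma), and with the mean negative control subtracted it was 2.32 (adjusted p = 0.0532). By an exact Mann-Whitney test its adjusted p was 0.622, a test whose smallest unadjusted p with 4 against 4 samples is 0.0286. It was positive under all 16, and its adjusted p ran from 2.98e-04 to 0.622.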

How the data were processed

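The authors deposited a normalized signal, made from nCounter barcode counts with the maker's software. The signal was scaled per sample by a single factor. All values over 1 were whole multiples of it within 0.02 counts, the ligation controls included, and the positive and negative controls carried no factor. The scaling matched the geometric mean of Actb, B2m, Gapdh and Rpl19, and background had not been subtracted. Division by the factor gave the counts back, and values under 1 were listed as 1, so no count model was used. At these depths counting error is wide. A fit over all 566 mouse rows used limma 3.58.1 under R 4.3.3 (trend, Benjamini-Hochberg threshold 0.05) on log2(signal + 1), which understates changes of low rows, and on log2(count + 1) centred per sample on the 533 other rows. The p-values measure only the spread between these pools. Simulated counts were run through the fit relative to the other rows and through a fit scaled to the same total. The fit on the deposited scale was not run on simulated data.

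Members and lists were chosen with earlier results of these data known. Counts per sample were given for members above background in at least 1 sample, and tests for members above it in at least 4 samples, members called relative to the other rows, and miR-466g. Alternatives covered background limits, scaling, centring, pseudocount, tests, the replicate number as a block and leaving out each sample. The sequences and gene spans are RefSeq's. No pair of samples within KC or within MNC was a duplicate by chi-square tests of counts.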

Additional observations from a re-analysis of the deposited data

Results flagged for a closer look

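In 34 sets of 4 samples (counts of the 10 members above background, member and family medians, number above background and share of the total), 2 had a sample farther from the others than the limit of Dixon's test, and chance gives about 5% of sets. miR-669h-5p had 31 counts in KC 3 and 13 to 15 in the other KC samples, a gap of 0.8889 of the range. The median count of the members was 8 in KC 3 and 13 to 14 in the other KC samples, a gap of 0.8333 of the range, and the median of the other mouse rows was also lowest in KC 3, at 8 counts.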

How the results depend on the processing

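The count of 10 members above background was 7 with a limit of the mean plus 2 SD of the negative controls, 5 (miR-297c, miR-466d-3p, miR-466g, miR-467e and miR-669h-5p) with the herpesvirus rows in the limit, and 8 to 10 without 1 sample. With means in place of medians, miR-467 and miR-669 were at 0.928 and 0.924 of the other rows. With the mean negative control subtracted no family ratio was possible, since the median of the other rows was 0.

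On the deposited scale, members higher in KC numbered 7. Of all rows called higher, members were 0 of 1 on barcode counts, 1 of 8 at the same total, 0 of 1 after quantile normalization, 18 of 332 with background subtracted, 15 of 252 with a pseudocount of 10, 0 of 0 by the exact Mann-Whitney test (15 of 209 unadjusted) and 1 of 11 by the unequal-variance test. Without 1 sample they ran from 1 of 26 (KC 2) to 11 of 145 (MNC 1). Scaled to the ligation controls, 15 of 258 rows called lower were members. Among the 54 rows above background on average, 40 were called, with 3 members, of which miR-466g passed that filter only through KC. miR-466g was positive under all 17 alternatives without that filter and past the threshold under 13. The other 4 were barcode counts (1.30, adjusted p = 0.176 by limma), ligation controls (0.10, adjusted p = 0.844), quantile normalization (0.95, adjusted p = 0.199) and the exact Mann-Whitney test (adjusted p = 0.0774). The differences of miR-467e and miR-466d-3p turned to -0.011 and -0.048 on barcode counts, -0.18 and -0.21 at the same total, -1.20 and -1.23 with the ligation controls, and -0.20 and -0.23 after quantile normalization. On the deposited scale miR-467e passed the threshold as higher under 3 alternatives and miR-466d-3p under 2, and both as lower with the ligation controls.

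Relative to the other rows, the 1 member called became 0 when centred on rows above background, with background subtracted (2 unadjusted by limma, of 16 rows) and by the exact Mann-Whitney test (1 unadjusted, of 26). All rows called were 5 higher with 3 lower, 1 and 0. With the rows above background as the centre, 6 members had an unadjusted p under 0.05 by limma, beside 83 of all 566 rows. It held under the other 13 without the filter. miR-467e turned to -0.33 when centred on rows above background, -0.039 on herpesvirus rows, -0.24 on the 100 highest rows and -0.019 with background subtracted, and ran from -0.088 to 0.090 without 1 sample. miR-466d-3p turned to 0.045 on the deposited signal and ran from -0.14 to 0.082 without 1 sample.

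Samples with the same replicate number had correlated deviations of 0.017, 0.072, 0.054 and 0.116, so the numbers were read as names. With the replicate number as a block, 11 members were called on the deposited scale, beside 198 of all 566 rows, and 1 relative to the other rows, beside 8 higher and 1 lower. Of the 4 KC samples, 3 correlated best with their own number. For 23 members the counts give only a bound.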
